A study of Drosophila melanogaster with 48 samples.

Results

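Glycolysis is the chain of enzymes that splits glucose into pyruvate and yields ATP and NADH on the way. In the fly head, the photoreceptors, neurons and glia draw much of their energy from sugar that glycolysis breaks down, and glia can pass its products to neurons. Menadione sodium bisulfite (MSB) is a quinone that cycles between redox states in the cell and generates reactive oxygen species.

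The genes described here are 10 that encode enzymes of this chain, *Hex-A*, *Pgi*, *Pfk*, *Tpi*, *Gapdh1*, *Gapdh2*, *Pgk*, *Pglym78*, *Eno* and *Pyk* (written *PyK* in the files and below). They were taken by FlyBase symbol, and all 10 were found among the 13957 genes of the table. All 10 passed the filter on low counts in every fit below. Aldolase is the step of the chain that these 10 genes do not cover, and its gene *Ald1* is given among the related genes.

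RNA sequencing of poly-A RNA was performed on pools of 60 heads of living *D. melanogaster* males, 5 to 7 days old, in 12 inbred lines. The stress group was kept on food with 75 mM MSB and the control group on the same food without it. Deletion lines carried a deletion in the 3′ UTR of *MtnA*, a metallothionein gene. They were M12D3 and M9D3 from Germany, C2D3 from Cyprus and KL01 from Malaysia, set against the nondeletion lines M12N3, M9N1, C2N1 and KL02. The 4 Zambian lines ZI197, ZI254, ZI273 and ZI418, from the ancestral range of the species, carried the nondeletion allele. Within M12, M9 and C2, both lines were derived from a single isofemale line and were nearly isogenic. The paper reports more residual sequence divergence in the M9 pair than in the M12 and C2 pairs. The M9 lines thus differed at other loci besides *MtnA*. KL01 and KL02 were separate isofemale lines that differed elsewhere in the genome too. Exposure lasted 24 h in the cosmopolitan lines and 18 to 20 h in the Zambian lines, so range and exposure time cannot be told apart. Each line had 2 control libraries and 2 stress libraries, except for 1 stress library in ZI197 and in ZI418 and 3 in ZI254 and in ZI273.

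Total counts lay between 29414147 and 53939743 in the stress libraries and between 27223075 and 63358011 in the controls. Each of 24 stress libraries was nearest to the controls of its own line. One library, M9N1 stress replicate 1, stood apart on the second principal component, at 49.3 against -5.02 to 3.31 in the others. It held 1135 CPM (counts scaled to a common library size) of male reproductive tract markers, against at most 2.44 in any other library, and was left out of the comparisons, which rest on 23 stress and 24 control libraries. In every library used, neuron markers summed to at least 2750 CPM and photoreceptor markers to at least 44777 CPM, as befits whole heads. Gut markers summed to at most 2.89 CPM and male reproductive tract markers to at most 2.44 CPM in the 47 libraries used.

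Values below are CPM after TMM scaling (a correction for the makeup of each library), and log2 fold-changes (log2FC) are stress over control. A gene was called where the adjusted p of edgeR's quasi-likelihood test over all tested genes was under 0.05. A pool of heads holds many cell types, so fewer cells of a type and less RNA per cell cannot be told apart.

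All 10 genes were downregulated under MSB over all lines, and each was lower in the line means of 12 of 12 lines. The fit over all lines had treatment as its only term, so its adjusted p takes libraries of the same line as independent. With line as a block, all 10 were called lower too. Over all 10514 tested genes, 26.2% were called lower (53.5% were called in either direction), and 12.6% were lower in the means of all 12 lines. The median log2FC of the 10 genes was -0.43, against 0.01 over all tested genes. Summed, they took between 0.398% and 0.602% of a stress library's counts, with a median of 0.477%. In the controls they took between 0.548% and 0.707%, with a median of 0.623%. Single log2FC lay between -0.53 in *Gapdh2* and -0.25 in *Hex-A*, that is, expression 30.7% and 15.6% below that of controls.

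**Figure D1:**
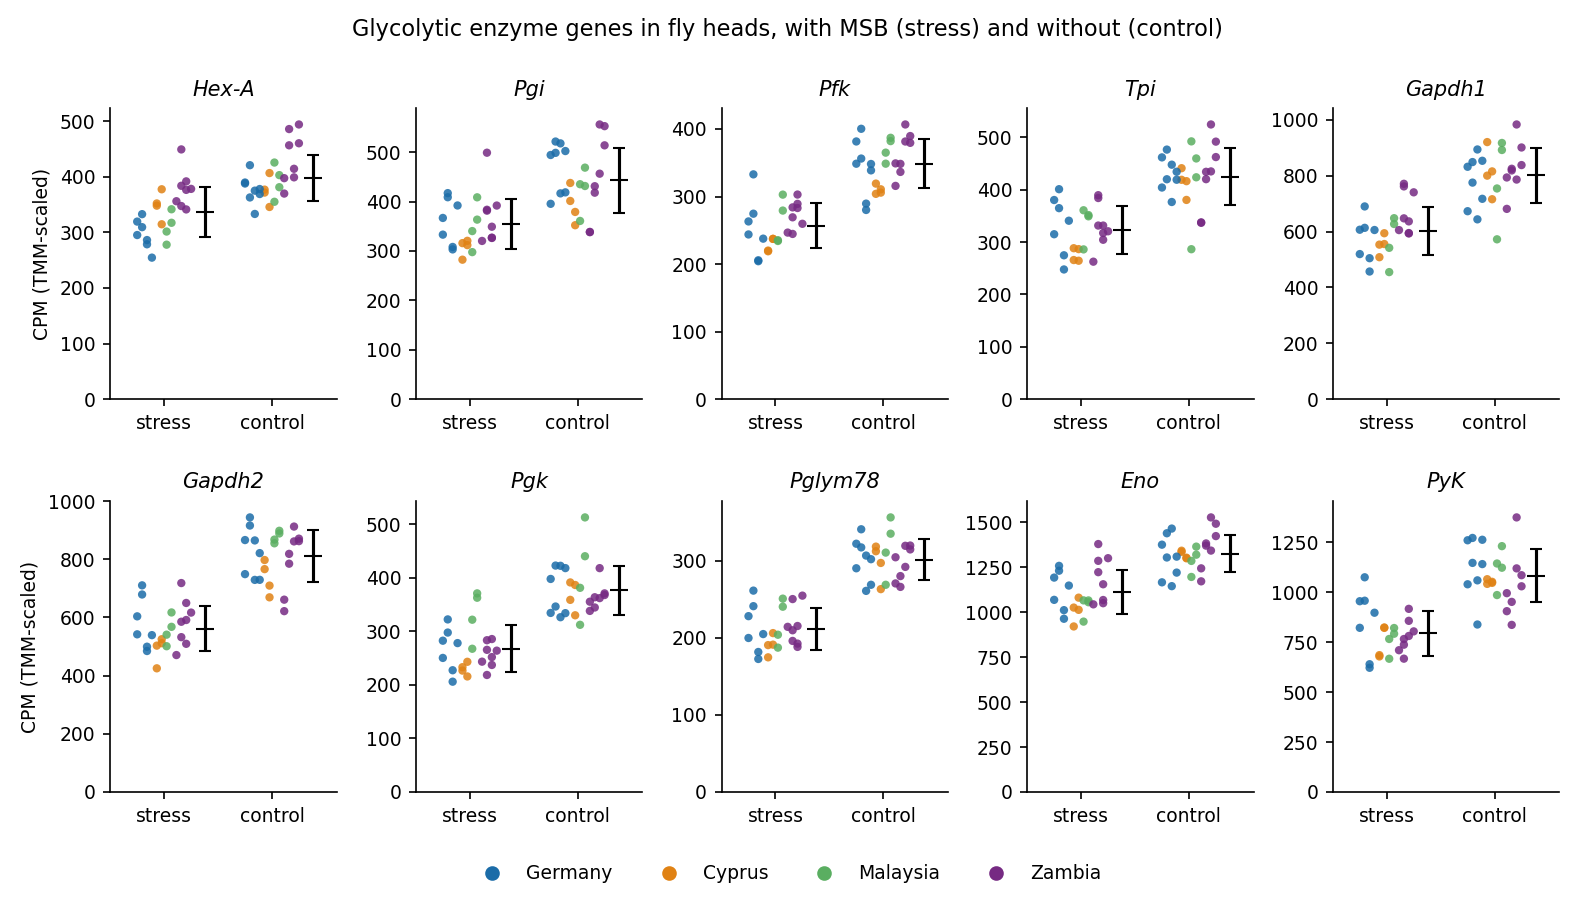
Expression of the 10 glycolytic enzyme genes in CPM after TMM scaling (y axes, starting at 0) in the stress and control libraries. Each point is 1 library, coloured by country, and the black bar is the mean ± SD over 23 stress and 24 control libraries. Means were lower under stress for every gene, and *Pglym78* shows the least overlap, with a highest stress library of 261 CPM and a lowest control of 261 CPM.

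The chain opens with *Hex-A* (FBgn0001186; chromosome X, 9585675 to 9589813, plus strand), a hexokinase that phosphorylates glucose. Across the stress libraries *Hex-A* had 254.5 (lowest), 341 (median) and 449 CPM (highest), against 333, 389 and 494 CPM in the controls. The groups overlapped widely, with 12 of the 23 stress libraries inside the range of the controls. *Hex-A* had the smallest decrease of the 10, a log2FC of -0.25 (SE 0.05, adjusted p = 5.26e-05). *Pgi* (FBgn0003074; chromosome 2R, 8910900 to 8914069, minus strand) encodes phosphoglucose isomerase, which turns glucose 6-phosphate into fructose 6-phosphate. Its levels were 282, 340 and 499 CPM under stress, against 338, 433 and 556 CPM in the controls, with a log2FC of -0.32 (SE 0.06, adjusted p = 1.21e-05). The highest stress library, ZI254 replicate 1, stood above both ZI254 controls, which had 418 and 431 CPM. *Pfk* (FBgn0003071; chromosome 2R, 10109740 to 10117457, plus strand) encodes phosphofructokinase, the enzyme of the committed step. *Pfk* had 204, 247 and 333 CPM under stress, against 280, 349 and 407 CPM in the controls, and 6 stress libraries reached into the control range. Its log2FC was -0.44 (SE 0.05, adjusted p = 1.46e-10).

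*Tpi* (FBgn0086355; chromosome 3R, 30132981 to 30134599, minus strand) encodes triose phosphate isomerase, which interconverts the triose phosphates. It had 248, 321 and 401 CPM under stress, against 286, 429 and 525 CPM in the controls (log2FC -0.40, SE 0.06, adjusted p = 7.81e-08). The lowest control was KL01 replicate 2, far below the next control library, at 337 CPM in ZI197. Glyceraldehyde 3-phosphate dehydrogenase, which makes NADH, is encoded by *Gapdh1* (FBgn0001091; chromosome 2R, 7791901 to 7793380, minus strand) and *Gapdh2* (FBgn0001092; chromosome X, 15868145 to 15869661, plus strand). These are paralogs of near-identical sequence, and how reads that fit both were counted is not given in the sources used here, so the split between them is uncertain. *Gapdh1* had 455, 605 and 771 CPM under stress, against 572, 817 and 984 CPM in the controls (log2FC -0.42, SE 0.06, adjusted p = 2.33e-08). *Gapdh2* had 425, 541 and 718 CPM under stress, against 622, 838 and 944 CPM in the controls. Only 4 stress libraries of *Gapdh2* reached the range of its controls, and its log2FC of -0.53 (SE 0.05, adjusted p = 6.18e-12) was the largest decrease of the 10.

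The share of *Gapdh1* in the counts of both paralogs was slightly higher under stress. In the line means it lay between 48.4% (M12N3) and 56.3% (ZI197) under stress, with a median of 52.2%. Control means lay between 43.3% (KL01) and 53.4% (ZI197), with a median of 50.2%. The ranges overlapped, and the difference was not tested.

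*Pgk* (FBgn0250906; chromosome 2L, 2746880 to 2753068, minus strand) encodes phosphoglycerate kinase, the first ATP-yielding step. It overlaps *Bacc* and exons of *Cwc25* on the opposite strand, and whether the counting used strand is not given in the sources used here. *Pgk* had 206, 264 and 371 CPM under stress, against 312, 366 and 513 CPM in the controls (log2FC -0.49, SE 0.06, adjusted p = 9.65e-10). Only 4 stress libraries, from KL01, KL02 and M12N3, reached the control range. *Pglym78* (FBgn0014869; chromosome 3R, 29148248 to 29149901, plus strand) encodes phosphoglycerate mutase and overlaps exons of *eIF2D* on the opposite strand. Stress libraries had 173, 205 and 261 CPM of *Pglym78*, against 261, 306 and 357 CPM in the controls. Its groups came closest to separation, since a single stress library (M12N3 replicate 2) lay above a single control (M9D3 replicate 2). Over all tested genes, 0.333% had a complete gap with lower stress libraries, and none of the 10 was among them. The log2FC of *Pglym78* was -0.51 (SE 0.05, adjusted p = 2.58e-13).

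*Eno* (FBgn0000579; chromosome 2L, 1724768 to 1729636, minus strand) encodes enolase and overlaps exons of *Rrp40* on the opposite strand. It was the gene with the most counts of the 10, with 921, 1068 and 1379 CPM under stress, against 1145, 1327 and 1527 CPM in the controls. The log2FC of *Eno*, -0.26 (SE 0.04, adjusted p = 8.05e-07), was the smallest after that of *Hex-A*, and 9 stress libraries lay in the control range. *PyK* (FBgn0267385; chromosome 3R, 22367536 to 22372746, plus strand) encodes pyruvate kinase, which ends the chain. It had 622, 792 and 1074 CPM under stress, against 836, 1062 and 1374 CPM in the controls (log2FC -0.45, SE 0.06, adjusted p = 3.30e-09). With *Hex-A* and *Pfk*, it is one of the steps at which flux through the chain is known to be controlled.

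Levels of different genes were compared per kilobase of the gene length in the deposited table. The exons of the annotation cover 3718 bases in *Eno*, against a deposited length of 2664. *Pfk* (4377 against 3508), *Tpi* (1558 against 1374), *Pgk* (2112 against 1893) and *PyK* (2242 against 2109) also differed. The order and gaps below hold for the deposited lengths only and could change with the others. Under stress the level was highest in *Eno*, at 417 ± 46 CPM per kb (mean ± SD, n = 23). *Gapdh1* followed with 406 ± 58 CPM per kb, *Gapdh2* with 389 ± 53 CPM per kb and *PyK* with 376 ± 54 CPM per kb. In the controls the same 4 genes led in another order (n = 24), *Gapdh2* with 562 ± 62 CPM per kb, *Gapdh1* with 542 ± 66 CPM per kb, *PyK* with 514 ± 64 CPM per kb and *Eno* with 498 ± 38 CPM per kb. Neighbours among these 4 differed by less than their SD in both treatments. *Tpi* (235 ± 33 CPM per kb under stress, 309 ± 39 in controls) and *Pglym78* (186 ± 24 under stress, 266 ± 23 in controls) were next, each apart from its neighbours by more than the larger SD. *Pgk* (141 ± 24 under stress, 199 ± 24 in controls) and *Pgi* (144 ± 21 under stress, 180 ± 27 in controls) could not be ordered beyond their SD. The lowest levels were those of *Pfk* (73.2 ± 9.5 under stress, 99.4 ± 10.2 in controls) and *Hex-A* (81.2 ± 10.9 under stress, 96.2 ± 10.1 in controls), the enzymes of the regulated entry steps.

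Within single lines, all 120 log2FC (10 genes in 12 lines) were below 0, and 60 were called lower. In 114 of these 120 pairs of gene and line, every stress library lay below every control, as in 31.9% of the pairs over all tested genes. The 6 exceptions were *Hex-A* in C2N1, *Tpi* and *Pgk* in KL01, *Pgi* and *Eno* in ZI254, and *Eno* in M12D3. The SE of a single value lay between 0.08 and 0.23, and the other 60 values were past no threshold.

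**Figure D2:**
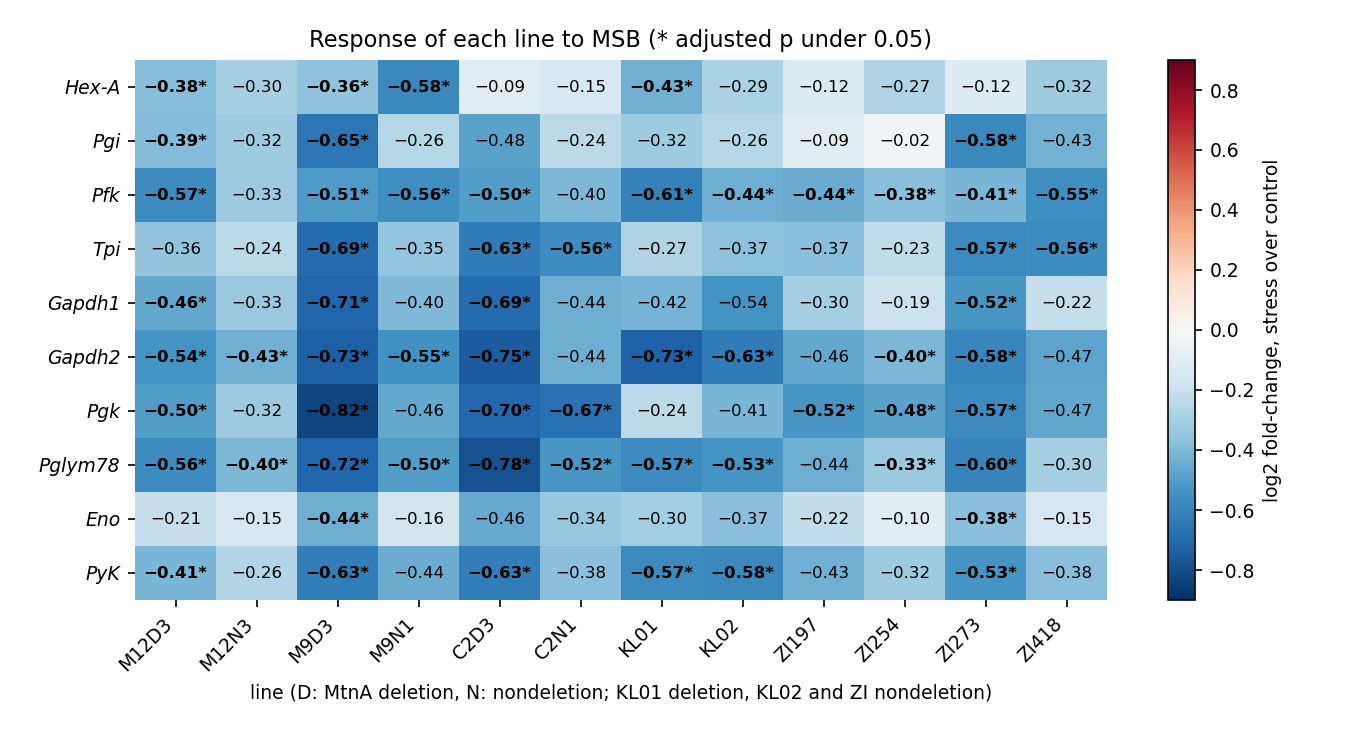
Response of the 10 genes (log2FC, stress over control) in each of the 12 lines. The text in each cell is the log2FC and colour runs with its size, and cells in bold with an asterisk were called lower in the fit of that line's background. All values were below 0, from -0.82 (*Pgk* in M9D3) to -0.02 (*Pgi* in ZI254).

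The German line M9D3 had the most genes called, all 10 (16.5% of genes were called lower there), and a median log2FC of -0.67. In C2D3 the median was -0.63. As differences of mean log2 CPM, scaled over all lines, the medians of both lines were -0.63. The strength of response was not tested between these lines. *Pgk* in M9D3 had 206 and 228 CPM in the stress libraries, against 423 and 327 CPM in the controls, a log2FC of -0.82 (SE 0.16, adjusted p = 0.00558). In the same line *Tpi* had 248 and 275 CPM under stress, against 448 and 377 CPM in controls (log2FC -0.69, adjusted p = 0.00383). The M9D3 count of 10 fell to 3 with M9N1 stress replicate 1 kept in the fit, to 2 and 4 without its own stress replicate 1 or 2, and to 5 without its control replicate 1. In M9N1, where 1 stress library remained, 4 of the 10 were called (11.6% of genes), *Hex-A*, *Pfk*, *Gapdh2* and *Pglym78*. *Hex-A* had its largest decrease there, with 254.5 CPM in the stress library, against 369 and 378 CPM in the controls (log2FC -0.58, SE 0.14, adjusted p = 0.0165).

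ZI273 had 9 of 10 called (13% of genes), all but *Hex-A*, and the count was 4 without its control replicate 2. *Pglym78* in ZI273 had 188, 216 and 193 CPM under stress, against 292 and 320 CPM in controls (log2FC -0.60, SE 0.10, adjusted p = 0.00213). M12D3 had 8 called (18.1% of genes), all but *Tpi* and *Eno*. That count was 1 without M12D3 control replicate 1 or stress replicate 1, 3 without stress replicate 2, and 5 without either control of M12N3. C2D3 had 7 called (5.93% of genes), and *Hex-A*, *Pgi* and *Eno* were not. *Pglym78* in C2D3 had 191 and 175 CPM under stress, against 313 and 319 CPM in controls (log2FC -0.78, SE 0.14, adjusted p = 0.00619). Between 0 and 9 were called in C2D3 when 1 of the 8 C2 libraries was left out.

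Fewer genes were called in the remaining lines, 5 in KL01 (11.3% of genes), 4 in KL02 (5.62%), 4 in ZI254 (8.38%), 3 in C2N1 (3.92%), and 2 each in M12N3 (8.52%), ZI197 (5.21%) and ZI418 (5.74%), beside the 4 of M9N1. These counts rested on few libraries too. KL01 had 3 and 2 called without its stress replicate 1 or 2, KL02 had 0 without any 1 of its own libraries, and C2N1 had 0 without either of its stress libraries. ZI254 had 0 without its control replicate 2 and M12N3 had 0 without either of its own controls, its stress replicate 1 or either stress library of M12D3. ZI197 had 0 without its control replicate 1, and ZI418 had 1 without its control replicate 2 and 4 without ZI254 stress replicate 1. The fit over all lines together called 8 in C2N1. *Gapdh2* in KL01 had 541 and 501 CPM under stress, against 868 and 855 CPM in controls (log2FC -0.73, SE 0.13, adjusted p = 0.0044). *Tpi* in KL01 had 361 and 286 CPM under stress, against 492 and 286 CPM in controls, and these libraries overlapped. Its log2FC of -0.27 (SE 0.23, adjusted p = 0.44) turned to 0.19 without KL01 control replicate 1. *Pgi* in ZI254 had 499, 383 and 381 CPM under stress, against 418 and 431 CPM in controls (log2FC -0.02, SE 0.12, adjusted p = 0.919). Its value was 0.05 without stress replicate 2 and 0.03 without stress replicate 3.

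By gene, *Pfk* and *Pglym78* were called in 10 of 12 lines, *Gapdh2* in 9, *Pgk* in 7, *PyK* in 6, *Tpi* in 5, *Hex-A* and *Gapdh1* in 4, *Pgi* in 3 and *Eno* in 2. *Pfk* varied least among lines, between -0.61 in KL01 and -0.33 in M12N3 (SD over lines 0.09). *Pgi* varied most, between -0.65 in M9D3 and -0.02 in ZI254 (SD 0.18). The SE of the single values was 0.08 to 0.12 for *Pfk* and 0.12 to 0.18 for *Pgi*, and the variation among lines was not tested. Over the 12 lines the responses of *Gapdh1* and *Pglym78* ran most closely together (Pearson's r = 0.952), and those of *Hex-A* and *Pgk* least so (r = -0.499). The median over the 45 pairs of genes was 0.547. These are descriptions, since all genes of a line were measured in the same libraries.

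Whether the *MtnA* deletion went with another response of these genes was asked in the 4 backgrounds with a deletion and a nondeletion line. In edgeR fits of each background, no gene of the 10 was called in any of the 12 contrasts (deletion minus nondeletion under stress, in controls, and in the response). Of the 120 values, 10 had an unadjusted p under 0.05, while 15.3% of the values of all genes did. DESeq2, and edgeR in 1 fit over all lines, each called 2 genes in the KL controls and 2 under stress in KL. Of all genes, 8% were called under stress, 0.1% in controls and 0.0822% for the response in M12. The shares in M9 were 1.97% under stress, 2.28% in controls and 0.15% for the response. In C2 they were 0.204% under stress, 0.232% in controls and 0% for the response. The KL pair, whose lines were not homogenized, had 21.7% under stress, 10.9% in controls and 1.23% for the response.

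In the genotype by treatment term over the 8 cosmopolitan lines, the fitted difference (deletion minus nondeletion response) was below 0 for all 10 genes, from -0.21 in *Pgi* to -0.03 in *Hex-A* on the log2 scale. None of the 10 was called (0.159% of genes were), and 4 had an unadjusted p under 0.05, as had 13.3% of all genes. *Pgi* had a difference of -0.21 (SE 0.09, adjusted p = 0.337), *Gapdh2* of -0.19 (SE 0.08, adjusted p = 0.301), *Pglym78* of -0.18 (SE 0.08, adjusted p = 0.31) and *Pfk* of -0.14 (SE 0.07, adjusted p = 0.352). Averages of the log2FC of the single lines come from the background fits and weight each line equally, so they need not match the fitted term. By these averages, *Gapdh2* was at -0.69 in the deletion lines and -0.51 in the nondeletion lines. *Hex-A* went the other way by its averages, with -0.32 in the deletion lines and -0.33 in the nondeletion lines, and its fitted difference turned to 0.04 without the Malaysian lines. The genes share libraries, so the common sign is not 10 separate results.

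**Figure D3:**
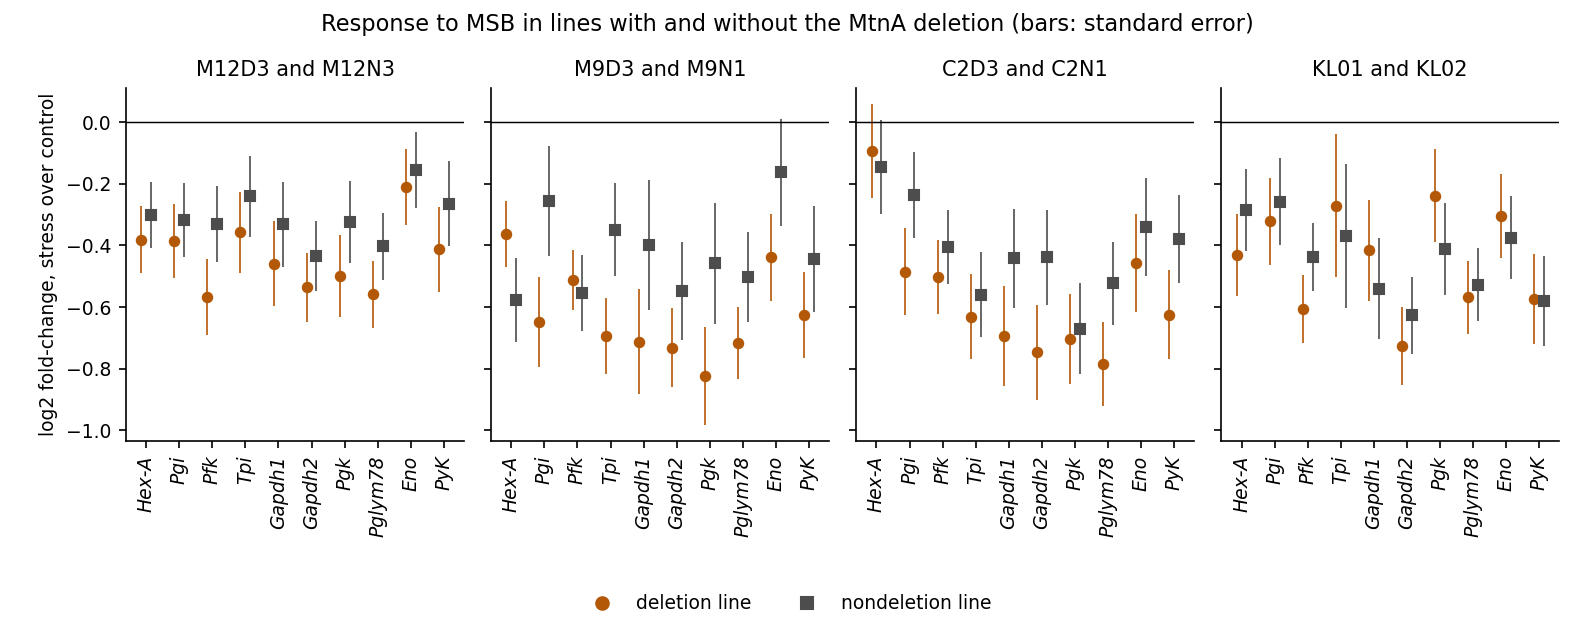
Response (log2FC, stress over control, y axis) of the 10 genes in the deletion line (orange circles) and the nondeletion line (grey squares) of each background, with SE as bars. No difference between the 2 lines of a background was called, and the median difference of the responses was -0.25 in M9, -0.18 in C2, -0.12 in M12 and -0.02 in KL.

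By background, the difference of the responses was below 0 for all 10 genes in M12, 8 in M9, 9 in C2 and 5 in KL. CPM values in this paragraph were scaled within each background, so they differ somewhat from the values scaled over all lines. The largest single difference under stress was that of *PyK* in M9 (log2 difference -0.54, SE 0.17). Its mean was 614 CPM in M9D3, and the only M9N1 stress library left had 889 CPM. In the controls *PyK* was also lower in M9D3, at 946 CPM, than in M9N1, at 1210 CPM (log2 difference -0.36, SE 0.14, adjusted p = 0.284). In KL, all 10 genes were lower in KL01 than in KL02 both under stress and in controls. Under stress *Pfk* had means of 238 CPM in KL01 and 294 CPM in KL02 (log2 difference -0.30, SE 0.11, adjusted p = 0.0894). *Pglym78* had 199 CPM in KL01 and 248 CPM in KL02 under stress (-0.32, SE 0.12, adjusted p = 0.094). In controls *Pgk* had a mean of 353 CPM in KL01, below both KL02 libraries at 513 and 441 CPM (log2 difference -0.48, SE 0.15, adjusted p = 0.0794).

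Several of these KL calls depended on single libraries, on the tool and on the lines fitted together. KL01 control replicate 2 had the lowest control values of *Tpi*, *Gapdh1* and *Pgk* (286, 572 and 312 CPM, against 492, 755 and 382 CPM in replicate 1). Without replicate 1, *Tpi*, *Gapdh1* and *Pgk* were called in the KL controls and *Pglym78* under stress. Without replicate 2, *Pfk* and *Pglym78* were called under stress. DESeq2's Wald test called *Gapdh1* (adjusted p = 0.0286) and *Pgk* (adjusted p = 0.0209) in the KL controls, and *Pfk* (adjusted p = 0.0284) and *Pglym78* (adjusted p = 0.0453) under stress. The edgeR fit over all lines called the same 4, *Gapdh1* (adjusted p = 0.0393) and *Pgk* (adjusted p = 0.0296) in the KL controls, and *Pfk* (adjusted p = 0.0107) and *Pglym78* (adjusted p = 0.0346) under stress.

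Zambian and cosmopolitan lines were compared for their responses, with their exposure times differing as given. The fitted difference (Zambian minus cosmopolitan response) was above 0 for 8 of the 10 genes. None of the 10 was called by edgeR (0.495% of genes were) and none had an unadjusted p under 0.05, as 11.8% of all genes had. The largest fitted difference was that of *Gapdh1*, at 0.16 (SE 0.10, adjusted p = 0.52), with averages of the single lines of -0.31 in the Zambian and -0.50 in the cosmopolitan lines. *Pglym78* had a fitted difference of 0.12 (SE 0.07, adjusted p = 0.532), with averages of -0.42 in the Zambian and -0.57 in the cosmopolitan lines. *Tpi* and *Pgk* had fitted differences of -0.01 and -0.02, which changed sign when some single libraries were left out, and their averages differed by less than 0.01 in the other direction.

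Without MSB, each of the 10 genes had a narrower range of line means than the median over all tested genes. *Pgi*, *Pfk* and *Gapdh2* were called as differing among the control libraries of the 12 lines, 3 of 10, while 51.5% of all genes were. Values here were scaled over the 24 controls alone. *Pgi* had the widest range, with a mean of 536 CPM in ZI418 and 343 CPM in ZI197 (adjusted p = 0.0196). *Pfk* was highest in KL02, at 391 CPM, and lowest in M9D3, at 283 CPM (adjusted p = 0.00381). *Gapdh2* was highest in M12N3, at 928 CPM, and lowest in ZI197, at 651 CPM (adjusted p = 0.0169). *Eno* had the narrowest range, with 1464 CPM in ZI418 and 1226 CPM in ZI197, a log2 range of 0.26, and 3.67% of tested genes had a smaller one. The median log2 range of the 10 genes was 0.48, against 0.72 over all 11194 tested genes. Such a range also holds the spread between libraries of a line, which is wider in genes with few counts. The 10 genes were not set against genes of like level, so their narrower ranges may reflect their high counts. Without KL01 control replicate 1 the count of 3 became 5, and without ZI197 control replicate 2 it became 1.

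The other genes of sugar metabolism did not all go the way of the 10. Over all 10514 tested genes, 2756 were called lower and 2871 higher, and the counts of each list below stand beside these. Of 7 tested genes for the remaining steps of glycolysis and for paralogs of its enzymes, 2 were called lower and 2 higher, with a median of -0.04. *Hex-C*, a hexokinase known from the fat body, was downregulated (log2FC -1.45, SE 0.10, adjusted p = 2.28e-16), as was *Pfrx* (-0.22, SE 0.06, adjusted p = 0.00273), whose product makes or removes the activator fructose 2,6-bisphosphate. *CG7059*, a relative of phosphoglycerate mutase, was up-regulated (2.46, SE 0.12, adjusted p = 2.53e-21). *CG7069*, a relative of pyruvate kinase, was up-regulated too (1.17, SE 0.19, adjusted p = 1.33e-06). *Ald1*, the aldolase gene, had a log2FC of -0.11 (SE 0.06, adjusted p = 0.153).

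**Figure D4:**
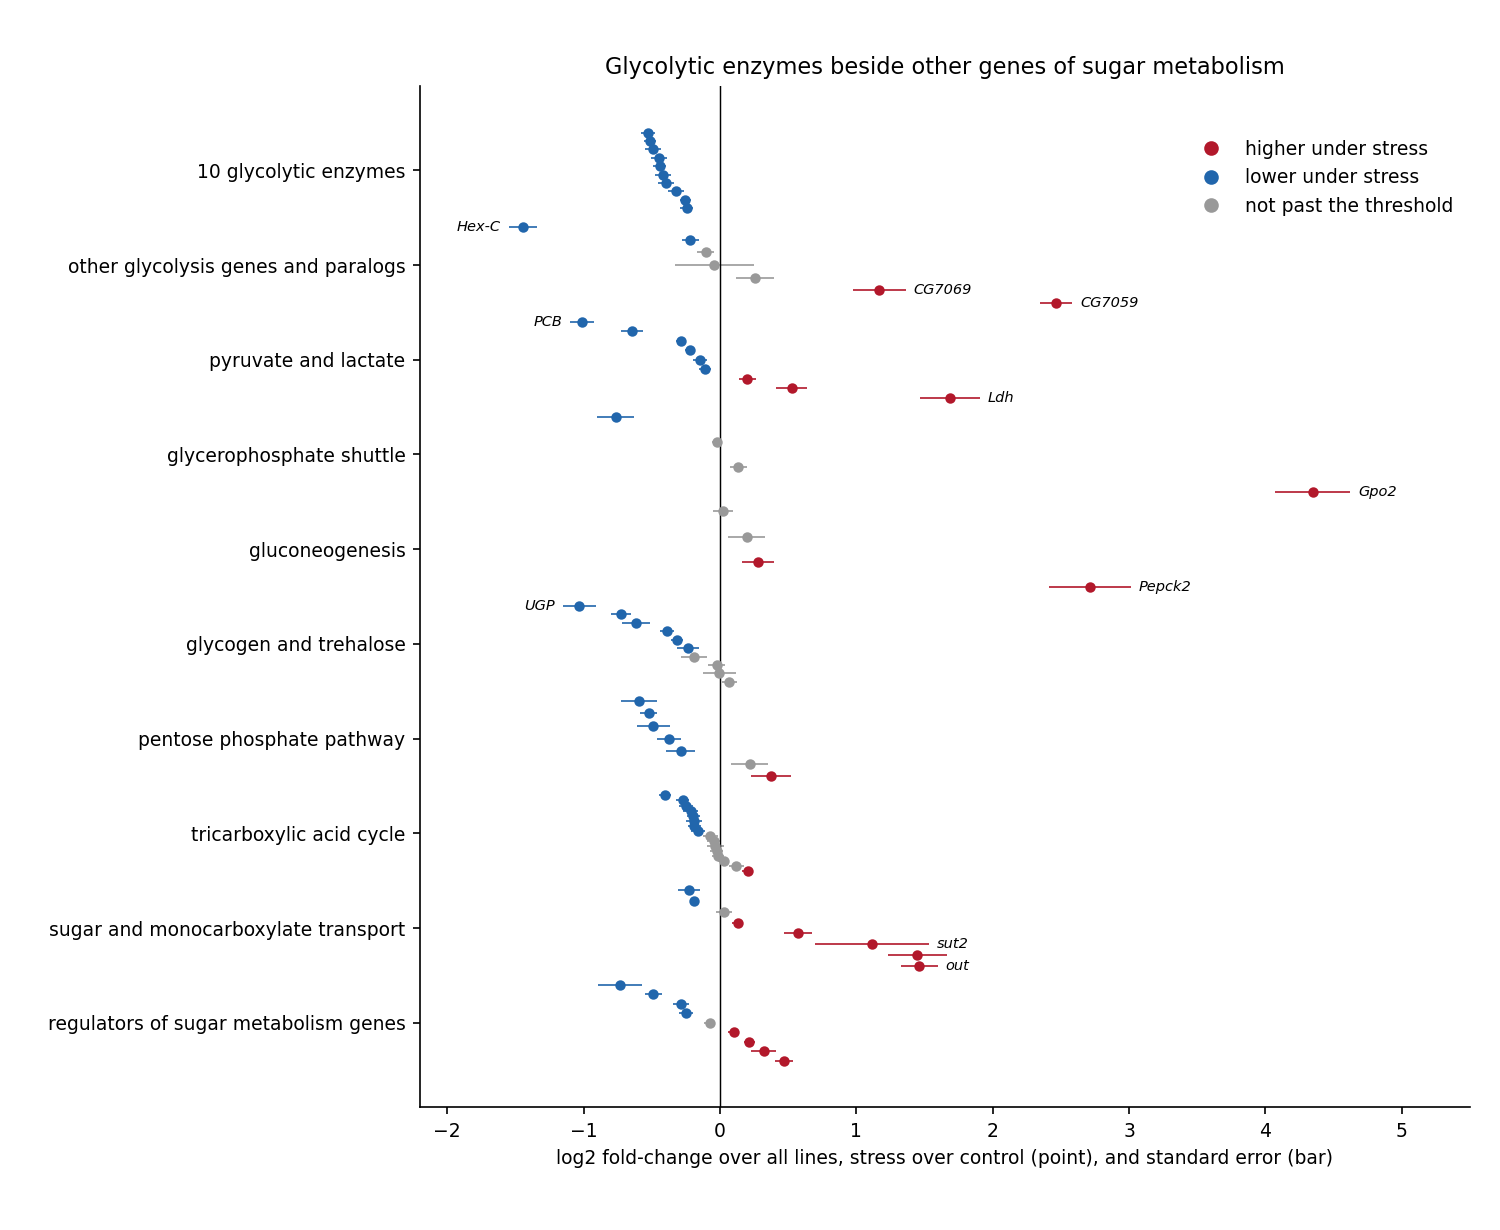
log2FC over all lines (x axis, stress over control) with its SE for the tested genes of each list, 1 point per gene. Blue points were called lower, red points higher, and grey points were past no threshold, with names given for most genes beyond 1 in either direction. All 10 glycolytic enzymes stand to the left of 0, whereas *Ldh* (1.69), *Pepck2* (2.71) and *Gpo2* (4.35) stand far to the right.

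Genes that handle pyruvate and lactate moved in both directions, with 6 of 9 called lower and 3 higher (median -0.15). *Ldh*, the lactate dehydrogenase that regenerates NAD+ from pyruvate, was up-regulated (log2FC 1.69, SE 0.22, adjusted p = 6.89e-09). So was *Pdk* (0.53, SE 0.11, adjusted p = 9.26e-05), the kinase that switches off pyruvate dehydrogenase. *PCB*, pyruvate carboxylase (-1.01, SE 0.09, adjusted p = 3.68e-14), and *Mpc1*, a subunit of the mitochondrial pyruvate carrier (-0.65, SE 0.08, adjusted p = 1.31e-09), were downregulated. In the glycerophosphate shuttle, 1 of 4 was called in each direction (median 0.06). *Gpo2*, a glycerophosphate oxidase relative, was up-regulated (4.35, SE 0.27, adjusted p = 4.25e-18), and *Gpdh1*, the cytosolic glycerol 3-phosphate dehydrogenase, was downregulated (-0.77, SE 0.14, adjusted p = 5.23e-06). For gluconeogenesis, 2 of 4 were called, both higher (median 0.24), the PEP carboxykinases *Pepck2* (2.71, SE 0.30, adjusted p = 9.09e-11) and *Pepck1* (0.28, SE 0.12, adjusted p = 0.044).

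Storage sugars and the pentose phosphate pathway went mostly the way of the 10 genes. Of 10 genes of glycogen and trehalose metabolism, 6 were called lower and none higher (median -0.28), with *UGP*, which makes UDP-glucose, at -1.03 (SE 0.12, adjusted p = 2.72e-10) and the debranching enzyme gene *CG9485* at -0.72 (SE 0.07, adjusted p = 1.01e-11). Of 7 genes of the pentose phosphate pathway, 5 were called lower and 1 higher (median -0.37). The lower ones included the transketolase gene *CG8036* (-0.59, SE 0.13, adjusted p = 0.00013) and *Rpe*, an epimerase (-0.52, SE 0.06, adjusted p = 1.39e-09), while *Pgd*, an NADPH-yielding dehydrogenase of the oxidative branch, was up-regulated (0.37, SE 0.15, adjusted p = 0.0312). In the tricarboxylic acid cycle, 8 of 16 were called lower and 1 higher (median -0.12), with *Mdh2* at -0.40 (SE 0.04, adjusted p = 8.90e-11), the citrate synthase gene *kdn* at -0.27 (SE 0.05, adjusted p = 5.79e-06) and *Ogdh* at 0.20 (SE 0.04, adjusted p = 2.99e-05).

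Transporters of sugars and monocarboxylates were mostly up-regulated, 5 of 8 against 2 lower (median 0.35). The trehalose transporter relative *Tret1-2* (1.45, SE 0.22, adjusted p = 1.80e-07) and *out*, a relative of monocarboxylate transporters (1.46, SE 0.13, adjusted p = 6.34e-13) rose most, and *Tret1-1* (-0.23, SE 0.08, adjusted p = 0.0197) and *chk*, a monocarboxylate transporter (-0.19, SE 0.03, adjusted p = 4.46e-06), fell. Of 9 genes for regulators of sugar metabolism, 4 were called higher and 4 lower (median -0.08). *bigmax*, the partner of the sugar sensor Mondo (0.47, SE 0.06, adjusted p = 2.07e-08), and *daw*, a ligand of the activin branch (0.32, SE 0.09, adjusted p = 0.00237), were higher. *sug* (-0.73, SE 0.16, adjusted p = 0.000144) and *foxo* (-0.49, SE 0.06, adjusted p = 6.90e-09), transcription factors of sugar and insulin signalling, were lower. These lists differ in how many genes they hold and were chosen with results of these data known.

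Markers of several cell types also moved with MSB. Neuron markers had 0 of 6 called by edgeR, and photoreceptor markers 1 of 8 in each direction. Of the photoreceptor markers, *norpA* was lower (log2FC -0.28) and *Arr2* higher (0.21). Among glia markers 4 of 6 were lower, led by *nrv2* (-0.83) and *repo* (-0.68), while *Eaat1* (-0.03) and *moody* (0.02) were not called. All 4 hemocyte markers were lower, led by *Hml* (-1.87) and *eater* (-1.50), as were 5 of 6 fat body markers, led by *Lsp2* (-2.07) and *apolpp* (-2.01). The remaining fat body marker, *to*, was not called (0.39, SE 0.53) and was higher under stress in the means of 11 lines. Lower muscle markers were 2 of 7, *Mhc* (-0.44) and *Mlc2* (-0.26), with a list median of 0.000233 (26.2% of all tested genes were called lower). Of 3 tested flight muscle markers 2 were lower, *Act88F* (-0.96) and *fln* (-0.36). Both had low levels, with means of 3.29 and 6.03 CPM under stress, against 6.44 and 7.75 CPM in controls. The flight muscle sum had a median of 281 CPM under stress and 272 CPM in controls. A single marker of gut, *Jon65Aiv* (3.04), and of the male reproductive tract, *betaTub85D* (0.33), passed the filter, and both were higher. Their levels were very low. *Jon65Aiv* had a mean of 0.94 CPM under stress, against 0.11 CPM in controls, and *betaTub85D* 1.26 CPM, against 1.00 CPM. Fat body markers summed to between 1404 and 7721 CPM under stress (median 2259, with raw library totals), against 4554 to 19787 CPM in controls (median 9258), with no marker at 0 in any group. Glia markers summed to 1514 to 3620 CPM under stress (median 2323), against 2035 to 4098 CPM in controls (median 3456). Photoreceptor markers summed to 44777 to 90465 CPM under stress (median 69632), against 49980 to 79332 CPM in controls (median 67036).

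Within lines, medians were set side by side as differences of mean log2 CPM. The median of the 10 genes lay between -0.63 (C2D3) and -0.29 (ZI254). That of the fat body markers lay between -2.65 (M12D3) and -0.52 (ZI197), that of the glia markers between -1.16 (M12D3) and 0.29 (ZI197), and that of the hemocyte markers between -3.08 (M12D3) and -0.49 (ZI197). The 10 genes had a median of -0.39 in both M12D3 and ZI197, and the values of ZI197 rest on 1 stress library. In C2D3 the medians were -1.97 for fat body, -0.30 for glia and -0.76 for hemocyte markers, and in ZI254 they were -1.07 for fat body, -0.51 for glia and -1.08 for hemocyte markers. The part of the lower glia, hemocyte and fat body markers, and of the few lower muscle markers, in the lower counts of the glycolytic enzymes was not tested.

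Outside all of these lists, the genes most like the 10 were taken by Pearson's correlation of their 24 means (12 lines in 2 treatments) with the mean profile of the 10, over 9053 genes. They were *CG11474* (r = 0.947), *Had1* (0.937), *Sodh1* (0.932), *ogre* (0.932) and *Optix* (0.925). All 5 were lower under stress in 12 of 12 lines, and their log2FC ran from -0.50 (*CG11474*) to -2.57 (*Had1*). Stress and control means both enter these correlations, so much of each reflects the difference between treatments. Among the 10 themselves, *Gapdh2* followed the mean of the other 9 most closely (r = 0.962), and *Hex-A* least so (r = 0.666).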

How the data were processed

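The authors extracted RNA with the RNeasy Mini Kit, had poly-A RNA purified from it and sequenced (paired-end, NovaSeq), and used NextGenMap 0.5.5 to map against FlyBase release 6.31 transcripts. The deposited values are raw read counts per gene, not normalized, and the authors' table gives a length for each gene. The counting program is not given in the sources used here. The submitters' processing notes name DESeq2 1.28.1 and R 4.0.0.

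Tests used edgeR 4.0.16 in R 4.3.3 (TMM, filterByExpr, quasi-likelihood F test, two-sided, Benjamini-Hochberg over all tested genes). SE is the absolute log2FC divided by the square root of F. Treatment was the only term over all lines. Each background, and the Zambian lines together, had 1 group per line and treatment, and where 1 stress library remained, its spread was taken from the rest of the fit. The interaction terms had line in the model. DESeq2 1.42.0 was an alternative, with the settings named in the closing section. PCA used 500 genes. The labels call replicates separate samples, and the study's methods call them biological. Positions are from the Release 6 annotation, matched by identifier. Simulated counts had 100 genes with a log2 change of 0.5 and 100 with a change of 1, far fewer than were called in the data. Of genes changed by 0.5, 99% were called over all lines, and 3% in M12D3 (71% at a change of 1). The adjusted p depends on how many genes change, so these shares do not give the sensitivity of the fits to the data.

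The 10 genes, the lists and the tests were chosen with earlier results of these data known. All 10 genes are named throughout. Of each other list, the 2 largest increases and decreases among called genes with a mean log2 CPM of at least 1 are named. *Ald1*, *CG7069*, *Jon65Aiv*, *betaTub85D*, *to*, *Eaat1* and *moody* were added after their values were seen. Columns of no sample of the series in the table numbered 0. No sequences were read, since only an annotation was used here.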

Additional observations from a re-analysis of the deposited data

Results flagged for a closer look

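M9N1 stress replicate 1, which was left out of the comparisons, carried signal that the other libraries lacked. Its male reproductive tract markers summed to 1135 CPM, against at most 2.13 CPM in the other stress libraries and 2.44 CPM in the controls. Its gut markers summed to 107 CPM, against at most 2.89 CPM in the other stress libraries and 1.24 CPM in the controls. Flight muscle markers summed to 510 CPM, against at most 459 CPM in the other stress libraries and 430 CPM in the controls.

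In this library *Pfk* had 354 CPM and *Eno* 1372 CPM, both above the 2 M9N1 controls (348 and 338 CPM for *Pfk*, 1308 and 1219 CPM for *Eno*). *Pgi* had 482 CPM, between its controls (418 and 502 CPM). The other 7 glycolytic genes were below both controls, with *Gapdh2* at 411 CPM, against 821 and 729 CPM. With all 48 libraries, all 10 genes were still called lower over all lines, and 3 were called in M9D3 and 3 in M9N1.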

How the results depend on the processing

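Over all lines, 10 of 10 genes were called lower under each of 9 other settings (DESeq2, other size factors, no filter, a threshold of 0.01, other choices of libraries and lines, line or replicate as a block) and without any 1 library. Counts within lines moved. DESeq2 called 6 genes in C2N1, 5 in ZI197 and 4 in ZI418, and 2 each in the KL contrasts of controls and of stress. RLE size factors gave 2 in ZI254. A single fit over all lines gave 8 in C2N1 and 5 in ZI197, with 2 each in the same KL contrasts. All 48 libraries gave 3 in M9D3.

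Same-numbered stress and control libraries deviated together in 3 of 9 lines (correlations over 0.1, range -0.14 to 0.27), so the numbers were not taken as pairs. With the replicate block, counts were 10 over all lines, 4 in M12D3, 3 in ZI273 and 0 in M12N3, M9N1, C2N1, ZI197, ZI254 and ZI418. Under this block *Pgi* in ZI254 had a log2FC of 0.0213, and the difference of Zambian minus cosmopolitan responses was 0.0337 for *Tpi* and 0.00152 for *Pgk*. Without the Malaysian lines, that difference was 0.0304 for *Tpi* and 0.0464 for *Pgk*, and the deletion minus nondeletion response of *Hex-A* was 0.0380.

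With 1 library left out at a time, counts ranged from 1 to 8 in M12D3, 0 to 2 in M12N3, 2 to 10 in M9D3, 2 to 4 in M9N1, 0 to 9 in C2D3, 0 to 2 in C2N1, 2 to 6 in KL01, 0 to 5 in KL02, 0 to 3 in ZI197, 0 to 5 in ZI254, 4 to 9 in ZI273 and 1 to 4 in ZI418. They ranged from 0 to 3 in the KL controls, 0 to 2 under stress in KL, and 1 to 5 among lines in controls. Log2 values ranged from -0.62 to 0.19 for *Tpi* in KL01 and from -0.17 to 0.0461 for *Pgi* in ZI254. The deletion minus nondeletion response of *Hex-A* ranged from -0.0608 to 0.0423. The Zambian minus cosmopolitan response ranged from -0.0416 to 0.0433 for *Tpi* and from -0.0488 to 0.0110 for *Pgk*. Of 1230 values of a gene in a line, 3 came out above 0. The cause of these moves was not tested.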
